A study of Drosophila melanogaster with 16 samples.

Results

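The vacuolar proton pump (V-ATPase) mRNAs were followed over pulse and chase as the 33 genes whose FlyBase symbol starts with Vha, out of 14228 genes with a row in either deposited table. All 33 such genes of the annotation were found, with 74 transcript rows, and the estimated counts of a gene's transcripts were summed. The libraries came from crudely dissected central nervous systems of L3 Drosophila larvae carrying UAS-CD:UPRT, an enzyme fusion that lets a cell use the fed base analogue 5-ethynylcytosine (5EC) to label its new RNA. The fusion was driven by insc-Gal4, active in neuroblasts and other neural progenitors, or by nSyb-Gal4, active in neurons. Larvae were fed 5EC for 12 h (the pulse) and were then moved to uridine for 0, 3, 6 or 12 h (the chase), and tagged RNA was captured and sequenced. Each of the 8 groups had 2 libraries, 16 in all, and both genotypes carried the same transgene and received the same feeding. Larvae without the fusion were not analysed here, so how much RNA of other cells was captured was not measured. Progenitors pass label to the neurons they produce, so the driver does not name the cells that held the RNA at the end of the chase.

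The V-ATPase moves protons across membranes at the cost of ATP. Its V1 sector hydrolyses ATP in the cytosol, and its V0 sector is the membrane ring and channel through which protons pass, with several copies of subunit c in each ring. The pump acidifies lysosomes and endosomes in every cell, and in neurons it also builds the proton gradient by which transporters load synaptic vesicles. Of the 33 genes, 13 encode 8 kinds of V1 subunit and 20 encode 6 kinds of V0 subunit or accessory protein, so several subunits have more than 1 gene. Some of these copies lie side by side. Vha68-2 (2L, 12974322 to 12978607, plus strand, coordinates of Ensembl BDGP6.54) and Vha68-3 (2L, 12978786 to 12981293, plus strand) are 178 bases apart, Vha100-4 and Vha100-2 on 3R are 517 apart, Vha16-3 and Vha16-2 on 3L are 985 apart, and VhaPPA1-2 and VhaPPA1-1 on 3R are 2052 apart.

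The libraries differed widely before any Vha gene was considered. Neuroblast libraries held 11050342 to 31608756 counts, neuron replicate 1 held 44312788 to 98924760 and neuron replicate 2 held 102189688 to 210724344. Mitochondrially encoded genes took 9.67 to 12.8% of counts in neuroblasts, 86.3 to 92.1% in neuron replicate 1 and 2.76 to 11.9% in neuron replicate 2 (Wilson 95% intervals at most 0.0384 percentage points wide, covering counting error only). At least 10 counts were reached by 1861 genes in replicate 1 of neuroblasts at 12 h, against 6284 to 10304 in the other neuroblast libraries, and by 13917 of the 14228 genes in replicate 2 of neurons at 12 h, against 2280 to 9402 in the others of that replicate. The 8 neuroblast markers summed to 127 to 1669 CPM (counts per 1000000 counts matched to genes) in neuroblasts, 25.0 to 747 CPM in replicate 1 of neurons and 47.4 to 790 CPM in replicate 2, so the ranges overlapped. Most of this was Syp in neuroblasts, at 108 to 1504 CPM, while the defining markers dpn, wor, mira and ase were each between 0 and 23.1 CPM there. The 8 neuron markers summed to 254 to 1783 CPM in neuroblasts, 401 to 599 CPM in replicate 1 of neurons and 2571 to 7325 CPM in replicate 2, so only replicate 2 lay above the neuroblast libraries. In neuroblasts 6 muscle markers summed to 19173 to 100055 CPM and 6 fat body markers to 7413 to 55392 CPM. Fewer cells of a type and less RNA per cell cannot be told apart in such samples.

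The summed Vha mRNA was of like size in the replicates of neuroblasts and far apart in those of neurons. The 33 genes summed to 3967 CPM at the end of the pulse, then to 5451 (3 h), 5932 (6 h) and 2211 CPM (12 h) in replicate 1 of neuroblasts, and in the same order to 5293, 3984, 4159 and 3551 CPM in replicate 2. The neuron sums were 8.37, 200.1, 82.7 and 37.6 CPM for replicate 1, and 6538, 10755, 15352 and 9952 CPM for replicate 2. Replicate 2 of neurons was thus above every neuroblast library, and replicate 1 below every one. With mitochondrial genes left out of the totals, replicate 1 of neurons still summed to only 74.6 to 1465 CPM, against 2515 to 6724 CPM in neuroblasts. Replicate 2 of neurons then ran from 6724 to 16626 CPM, its lowest library level with the highest of neuroblasts and no longer above it. Of the 25 members tested between the cell types, 16 were higher in replicate 2 than in replicate 1 of neurons at all 4 time points, as were 28.4% of all genes tested. What set the neuron replicates apart was not tested.

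**Figure D1:**
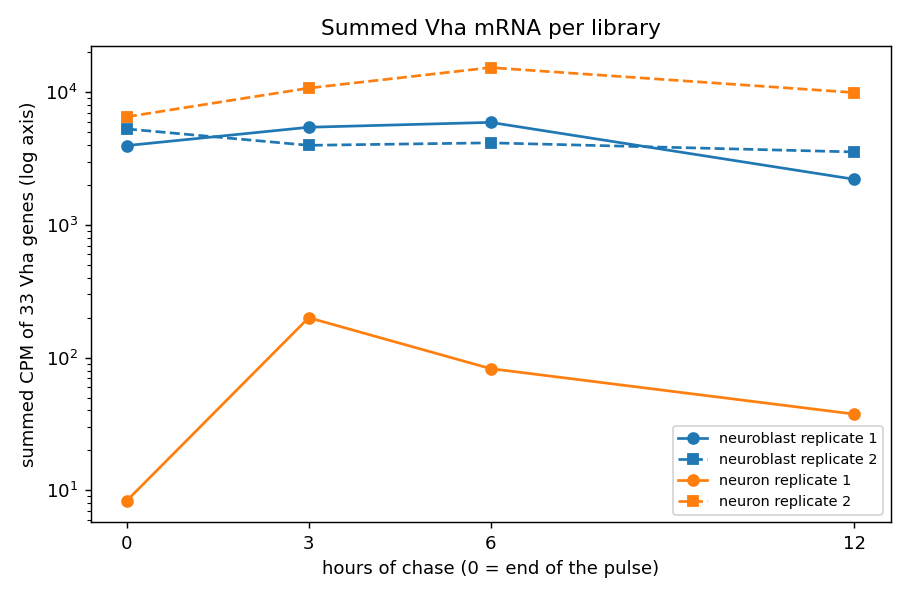
Summed CPM of the 33 Vha genes (log axis) against hours of chase, with 0 for the end of the pulse; each point is 1 library and lines join libraries of the same replicate number. Neuroblast libraries lie between 2211 and 5932 CPM, replicate 2 of neurons between 6538 and 15352 and replicate 1 of neurons between 8.37 and 200.1.

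Detection followed the same pattern. Between 10 and 22 of the 33 members reached 10 counts in a neuroblast library, 2 to 15 did in neuron replicate 1, and 14 to 33 did in neuron replicate 2. The shares over all genes were 13.1 to 72.4%, 6.45 to 44.8% and 16.02 to 97.8%. A count of 3, the most that a count of 0 allows by counting error alone, was worth 0.0142 to 0.271 CPM depending on the library.

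In the V1 sector, the catalytic subunit A came mostly from Vha68-2 (FBgn0263598). Its level was 236, 239, 328 and 106 CPM over the same 4 times in replicate 1 of neuroblasts, and 487, 261, 263 and 286 CPM in replicate 2. In neurons it was 0, 40.8, 0 and 0 CPM in replicate 1 and 74.0, 756, 798 and 464 CPM in replicate 2. The neuroblast libraries stayed within a narrow band apart from the highest at the pulse and the lowest at 12 h, and the neuron replicates did not overlap. Per kilobase of transcript, Vha68-2 made up 67.0 to 99.7% of the A-subunit mRNA in neuroblasts and at least 91.2% in replicate 2 of neurons. Most of the rest was Vha68-1, at 0.362 to 139 CPM in neuroblasts. Vha68-3 had 13.4 CPM in 1 neuroblast library and 0 in the other 7.

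Vha55 (FBgn0005671; 3R, 12623762 to 12627829, minus strand) encodes the B subunit, the nucleotide-binding partner of A. It stood at 405, 534, 389 and 0.905 CPM in replicate 1 of neuroblasts over the 4 times, and at 732, 479, 447 and 408 CPM in replicate 2. Replicate 1 of neurons had 0, 19.8, 0 and 0 CPM and replicate 2 had 617, 1311, 1469 and 1164 CPM. The 0.905 CPM at 12 h was 10 counts, in the neuroblast library with fewest genes detected, where Vha68-2 was still at 106 CPM. The ratio of B to A mRNA per kilobase, summed over the A genes, was 0.926 to 1.59 in the other 7 neuroblast libraries and 0.00786 in that one. It was 8.11 in the pulse library of neuron replicate 2 and 1.47 to 2.13 in its chase libraries.

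The peripheral stalk subunits E and G and the stator subunit C of V1 were also counted in every neuroblast library. Vha26 (FBgn0283535, subunit E of the peripheral stalk) had 498, 617, 449 and 154 CPM in replicate 1 of neuroblasts and 496, 425, 431 and 327 CPM in replicate 2. Its neuron values were 0, 39.6, 0.0140 and 0.0310 CPM in replicate 1 and 228, 96.6, 707 and 550 CPM in replicate 2. Vha26 was lowest at 12 h in both neuroblast replicates, and its neuron replicates did not overlap. Vha13 (FBgn0283536, subunit G of the same stalk) had 74.6, 70.9, 178 and 16.7 CPM in replicate 1 of neuroblasts and 69.8, 71.5, 50.9 and 94.7 CPM in replicate 2. In neurons Vha13 had 1.49, 5.65, 0.293 and 0.145 CPM in replicate 1 and 1.12, 242, 1739 and 371 CPM in replicate 2. The pulse library of neuron replicate 2 was therefore as low in Vha13 as replicate 1, and E and G, partners in the stalk, did not move together there. Vha44 (FBgn0287825, the stator subunit C) had 282, 295, 427 and 122 CPM in replicate 1 of neuroblasts and 221, 233, 116 and 144 CPM in replicate 2. Its neuron values were 0, 26.7, 0.293 and 0 CPM in replicate 1 and 82.7, 1276, 782 and 590 CPM in replicate 2. Vha44 was lower at 12 h than at the pulse in both neuroblast replicates and higher at 12 h than at the pulse in replicate 2 of neurons. It shares 148 of its 4023 exon bases with Hmgs on the opposite strand, the largest such overlap of the 4 members that have one.

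The remaining V1 subunits were less even. VhaSFD, the regulatory subunit H, ranged from 100 to 369 CPM in neuroblasts, while in replicate 2 of neurons it was at 0.0807, 15.3, 370 and 333 CPM. The first of these values was 17 counts in the library in which Vha16-1, below, had 5120 CPM. The rotor subunit F gene Vha14-1 ran the other way in that replicate, at 264, 5.35, 9.24 and 56.2 CPM, and had 0 counts in all 4 libraries of neuron replicate 1. Subunit D of the rotor came from both Vha36-1 and Vha36-3 in 6 neuroblast libraries, where Vha36-1 made up 48.2 to 76.8% of the D-subunit mRNA per kilobase. Vha36-3 had 0 counts in the pulse library of neuroblast replicate 1, and each gene had 1 count in its 12 h library. In replicate 2 of neurons the share of Vha36-1 ran from 6.04 to 99.8%.

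**Figure D2:**
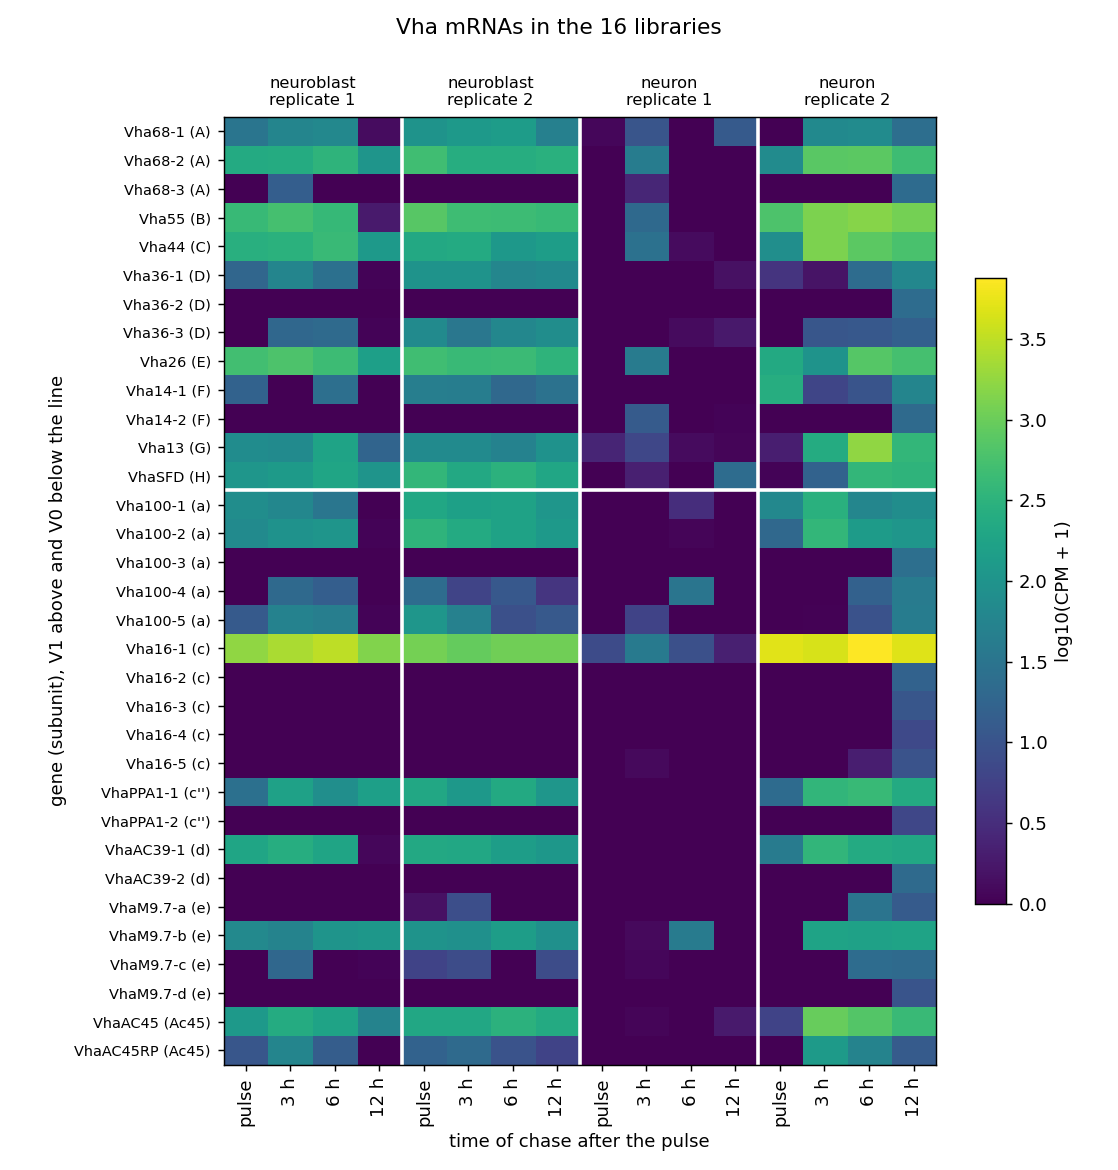
Level of each of the 33 Vha genes (rows, with the subunit in brackets, V1 above and V0 below the white line) in the 16 libraries (columns, by cell type, replicate and time), coloured by log10(CPM + 1). Vha16-1 is the brightest row in every neuroblast library and in replicate 2 of neurons, replicate 1 of neurons is dark for most members, and 8 rows reach 10 counts only in the 12 h library of neuron replicate 2.

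In the V0 sector the proteolipid ring subunit c came almost wholly from Vha16-1 (FBgn0262736; 2R, 6625242 to 6633090, minus strand), the most abundant Vha mRNA. Its level was 1721, 2394, 3085 and 1393 CPM in replicate 1 of neuroblasts and 1177, 902, 1073 and 1073 CPM in replicate 2. In neurons it was 6.72, 37.4, 7.81 and 1.18 CPM in replicate 1 and 5120, 4358, 7544 and 4805 CPM in replicate 2. Replicate 1 exceeded replicate 2 at every time in neuroblasts, and the reverse held in neurons. Vha16-1 was the only 1 of the 25 members tested for which replicate 2 of neurons lay wholly above the 8 neuroblast libraries, a pattern met by 1.73% of genes tested, and it was 1 of 10 members for which replicate 1 of neurons lay wholly below them, as 9.32% of genes did. By CPM per kilobase it ranked between 29 and 213 among 14214 nuclear genes in neuroblast libraries and between 15 and 50 in replicate 2 of neurons. It made up 35.8 to 52.1% of all Vha mRNA per kilobase in replicate 1 of neuroblasts, 16.5 to 21.6% in replicate 2, and 32.8 to 67.4% in replicate 2 of neurons.

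VhaPPA1-1 (FBgn0028662), the c'' subunit of the same ring, had 26.3, 167, 82.5 and 153 CPM in replicate 1 of neuroblasts and 209, 117, 228 and 109 CPM in replicate 2. Its neuron values were 0 in all 4 libraries of replicate 1 and 21.5, 352, 403 and 231 CPM in replicate 2. VhaPPA1-1 was higher at 12 h than at the pulse in replicate 1 of neuroblasts and lower in replicate 2. VhaAC39-1 (FBgn0285910; X, 3880748 to 3882967, plus strand), subunit d at the top of the ring, had 187, 257, 183 and 0.181 CPM in replicate 1 of neuroblasts and 221, 210, 144 and 110 CPM in replicate 2. In neurons it had 0, 0.0202, 0 and 0 CPM in replicate 1 and 39.6, 357, 235 and 212 CPM in replicate 2. Like Vha55, VhaAC39-1 was close to 0 in the 12 h library of neuroblast replicate 1. VhaM9.7-b (FBgn0028663), the small subunit e, had 66.9, 53.3, 101 and 112 CPM in replicate 1 of neuroblasts and 97.4, 87.6, 142 and 88.7 CPM in replicate 2. Its neuron values were 0, 0.273, 40.3 and 0 CPM in replicate 1 and 0.0285, 176, 166 and 179 CPM in replicate 2. VhaM9.7-b was at its usual level in the neuroblast library in which Vha55 and VhaAC39-1 were near 0, and was itself near 0 in the pulse library of neuron replicate 2. VhaAC45 (FBgn0262515), an accessory protein of V0, had 125, 243, 175 and 52.3 CPM in replicate 1 of neuroblasts and 213, 207, 304 and 235 CPM in replicate 2. In neurons it had 0, 0.131, 0 and 0.920 CPM in replicate 1 and 4.93, 937, 702 and 418 CPM in replicate 2. The pulse library was the lowest of neuron replicate 2 for VhaAC45 as for VhaM9.7-b and Vha13.

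The a subunit, which forms the proton path beside the ring, came mainly from Vha100-2 and Vha100-1 in neuroblasts and replicate 2 of neurons, with varying amounts of the other copies. Vha100-2 made up 39.4 to 51.2% of its mRNA per kilobase in 7 neuroblast libraries and 23.0 to 61.0% in replicate 2 of neurons. Vha100-1, which is known from Drosophila photoreceptors for a role in synaptic vesicles, made up 16.7 to 49.0% in the same 7 libraries and 26.6 to 77.0% in replicate 2 of neurons. Vha100-5 made up 2.38 to 24.9% in these 7 libraries and 0 to 14.3% in replicate 2 of neurons. At 6 h in replicate 1 of neuroblasts Vha100-5 was above Vha100-1. The remaining neuroblast library (12 h, replicate 1) held 1 count of Vha100-2 and 1 of Vha100-5, too few for a share. The ranges of the cell types overlapped for Vha100-2, Vha100-1 and Vha100-5.

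**Figure D3:**
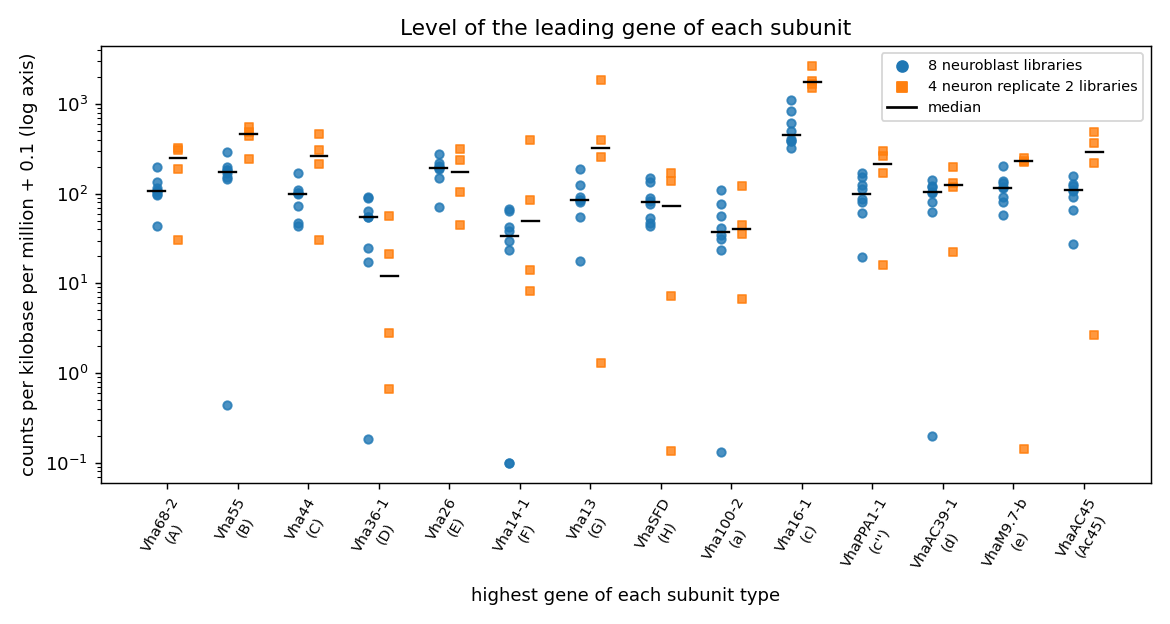
CPM per kilobase of transcript plus 0.1 (log axis) of the gene with the highest mean level for each of the 14 subunit types, in the 8 neuroblast libraries (circles) and the 4 libraries of neuron replicate 2 (squares), with the median of each as a bar; replicate 1 of neurons is not drawn. Vha16-1 lies at the top of both sets, and VhaSFD, Vha13 and VhaM9.7-b each have a neuron library far below the others.

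The mRNAs of the subunits of this complex were not captured in even proportion. Across the leading genes of the 14 subunit types, the highest level per kilobase was 4.98 to 44.5 times the lowest in the 6 neuroblast libraries in which all 14 were counted. Vha14-1 had 0 counts in the other 2, which were the 3 h and 12 h libraries of replicate 1. In replicate 2 of neurons the same ratio was 51702 at the pulse, 2717 at 3 h, 190 at 6 h and 47.7 at 12 h. The genes of any kind that reached 10 counts in these libraries numbered 2280, 6244, 9402 and 13917, in the same order. The lowest leading gene at the pulse was VhaSFD, with 17 counts. Whether other sets of genes were spread as widely was not tested. The V1 genes together made up 39.2 to 52.5% of Vha mRNA per kilobase in 7 neuroblast libraries, 23.6% in the 12 h library of replicate 1, and 30.1 to 47.9% in replicate 2 of neurons.

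A group of 8 members, Vha16-2, Vha16-3, Vha16-4, Vha36-2, Vha100-3, VhaAC39-2, VhaM9.7-d and VhaPPA1-2, had at most 2 counts in 15 of the 16 libraries. In the 12 h library of neuron replicate 2 each of them had 588 to 2592 counts. All 8 are further copies of subunits whose main gene was described above. Of the 1306 genes under 10 counts in the other 15 libraries, 86.8% reached 10 counts in this one, as did all 8 members. Their levels there, 8.56 to 26.1 CPM per kilobase, compare with a median of 9.21 over all such genes. The other low members were Vha14-2 and Vha16-5, with 0 counts in all neuroblast libraries, and Vha68-3, VhaM9.7-a, VhaM9.7-c, VhaAC45RP, Vha100-4 and Vha100-5, whose highest level in a neuroblast library was between 7.43 and 109 CPM.

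No Vha mRNA rose or fell over the chase in neuroblasts by the test used. The slope, a log2 change per hour relative to the rest of the captured RNA, was fitted with edgeR's quasi-likelihood test, and p-values were adjusted by Benjamini-Hochberg over all genes tested. Of 33 members 21 passed the filter on low counts, and 0 were called at an adjusted p under 0.05, where 0.602% of 9962 genes were called, all of them rising. At an unadjusted p under 0.05 there was 1 member, against 8.06% of genes, and DESeq2 called 7 members, all rising, of 16 to which it gave an adjusted p, against 32.6% of 3202 genes called as rising. The median slope of the 21 members was 0.04, and that of all genes was -0.10. With DESeq2 size factors in place of TMM scaling, edgeR called 3 members as rising, against 9.59% of genes. Slopes were positive for 14 members and negative for 7, but with total counts in place of TMM scaling they were positive for 3 and negative for 18. Without the 12 h library of replicate 2 they were positive for 9 and negative for 14 of 23 members tested. The median was then -0.20, beside -0.34 over all genes. Without the pulse library of replicate 1 they were positive for 11 and negative for 12, with a median of -0.0047, beside -0.14 over all genes.

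The smallest p belonged to Vha16-1, with a slope of 0.13 ± 0.06 (standard error over 8 libraries, edgeR adjusted p = 0.612, unadjusted 0.0455), followed by VhaM9.7-b with 0.19 ± 0.10 (edgeR adjusted p = 0.615). The falling members with the smallest p were Vha100-5 with -0.18 ± 0.19 (edgeR adjusted p = 0.908) and VhaAC45RP with -0.17 ± 0.29 (edgeR adjusted p = 0.953). None of these slopes was larger than the spread between libraries allowed once all genes tested were taken into account. In plain ratios of CPM from pulse to 3 h, 14 of 17 members with 10 counts in both libraries were higher in replicate 1 (median ratio 1.32) and 16 of 21 were lower in replicate 2 (median ratio 0.857), beside medians over all genes of 1.03 and 0.947. At 6 h, 14 of 18 were higher in replicate 1 (median ratio 1.49) and 16 of 20 lower in replicate 2 (median ratio 0.692), beside 0.798 and 0.621. In these plain ratios the replicates thus went opposite ways at 3 and 6 h and the same way at 12 h. At 12 h, 8 of 10 were below the pulse in replicate 1 (median ratio 0.441) and 17 of 21 in replicate 2 (median ratio 0.586), beside medians over all genes of 0.755 and 0.387. Set beside the medians over all genes, the members' median at 3 h was higher in replicate 1 and lower in replicate 2. At 6 h it was higher in both, and at 12 h it was lower in replicate 1 and higher in replicate 2. These ratios share their pulse library within a replicate.

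In neurons 25 members were tested and 0 were called by edgeR, as were 0 of 11724 genes (0.0%). At an unadjusted p under 0.05 there were 0 members and 10.3% of genes, and DESeq2 called 4 members, all falling (Vha100-1, Vha14-1, Vha16-1 and Vha26), of 18 with an adjusted p, against 14.2% of 6723 genes called as falling. The median member slope was -0.02 and that of all genes 0.21. Slopes were positive for 12 members and negative for 13, for 7 and 18 with DESeq2 size factors (median -0.43) and for 21 and 4 with total counts (median 0.15). Vha14-1 had the steepest negative slope, -0.59 ± 0.33 (standard error over 8 libraries, edgeR adjusted p = 0.535), and Vha16-1 came next at -0.41 ± 0.33 (edgeR adjusted p = 0.731) by size of p. The positive slopes with the smallest p were Vha16-5 at 0.48 ± 0.37 (edgeR adjusted p = 0.718) and VhaSFD at 0.71 ± 0.64 (edgeR adjusted p = 0.777). The Vha14-1 slope rested on the 264 CPM of 1 pulse library and became 0.33 without it.

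Without replicate 1 of neurons, 5 members were called as rising of 33 tested, against 21.2% of 13963 genes. Without only its 12 h library 7 were, against 19.1% of 13986 genes. All 5 and all 7 were among the 8 genes that reached 10 counts only in the 12 h library of replicate 2. Within replicate 2, 10 of the 14 members with 10 counts in both libraries were higher at 3 h than at the pulse, and 12 of 14 were at 6 h and at 12 h, with median ratios of 9.62, 7.37 and 5.88, beside 3.69, 4.46 and 5.51 over all genes. These 3 ratios share the pulse library, in which 2280 genes reached 10 counts.

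**Figure D4:**
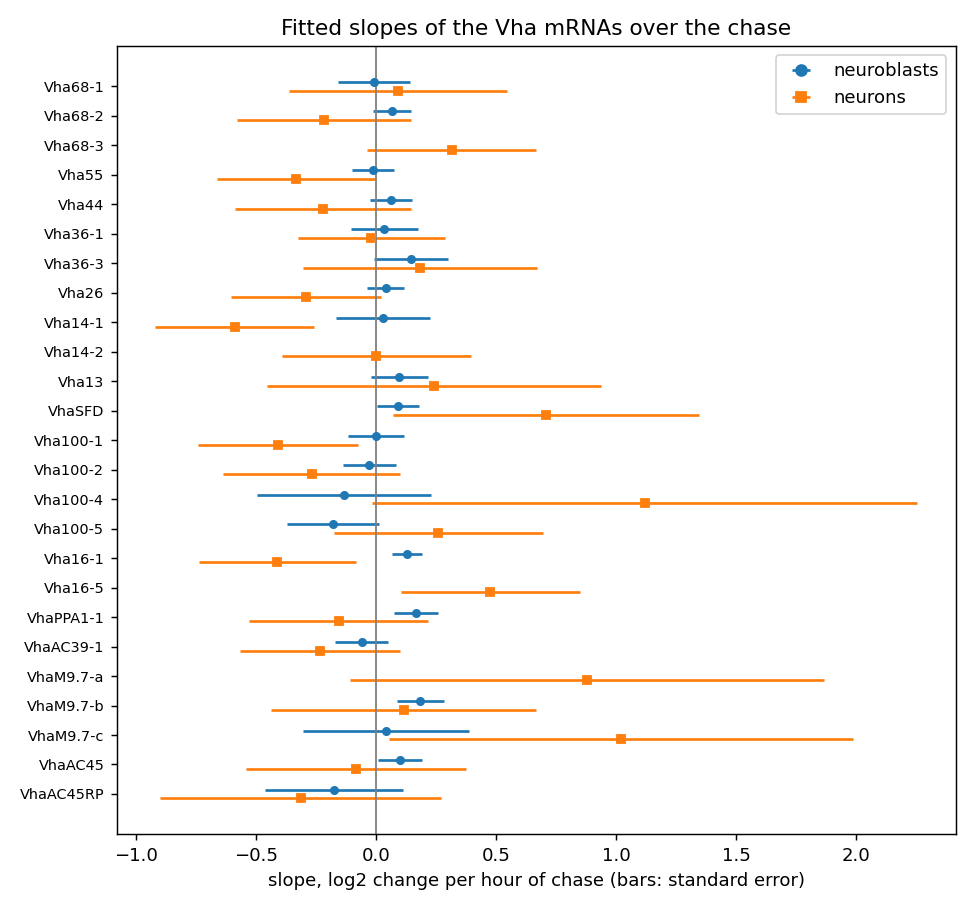
Slope of each tested Vha gene in log2 change per hour of chase, with its standard error as a bar, in neuroblasts (circles, 21 genes) and neurons (squares, 25 genes). Neuroblast slopes lie between -0.18 and 0.19 and neuron slopes between -0.59 and 1.12, with bars several times longer in neurons.

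No Vha gene was called in the test of the difference of slopes between the cell types. Of 25 members 0 were called by edgeR, against 0.567% of 12694 genes, and 0 had an unadjusted p under 0.05, against 14.3% of genes. DESeq2 called 6 members, against 12.4% of genes called as steeper upwards in neurons and 7.45% called the other way. Of these, Vha14-2 had the higher slope in neurons, and Vha16-1, Vha26, Vha44, Vha68-2 and VhaPPA1-1 the lower. Vha14-2 had 0 counts in every neuroblast library, so there was no neuroblast slope to compare with. In edgeR the difference (neurons minus neuroblasts, log2 per hour) was -0.52 ± 0.31 for Vha14-1 (adjusted p = 0.458) and -0.50 ± 0.31 for Vha16-1 (edgeR adjusted p = 0.474). It was 1.83 ± 1.11 for VhaM9.7-a (edgeR adjusted p = 0.465) and 1.34 ± 0.83 for Vha68-3 (edgeR adjusted p = 0.478). Neither of these genes passed the filter on low counts in neuroblasts alone. There VhaM9.7-a had 6 counts at the pulse and 235 at 3 h in replicate 2, and 0 elsewhere. Vha68-3 had 345 counts at 3 h in replicate 1 and 0 elsewhere. The median difference over members was -0.08, and over all genes 0.47. It was positive for 12 members, among them Vha14-2 and Vha16-5 with 0 counts in every neuroblast library, and negative for 13. With DESeq2 size factors in edgeR it was positive for 6 and negative for 19 (median -0.53), 0 were called and 8 had an unadjusted p under 0.05, all with the lower slope in neurons, against 17.8% of genes in either direction. With total counts it was positive for 24 and negative for 1 (median 0.24).

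Levels in neurons and neuroblasts, compared over all times with the time point as a factor, also gave 0 calls among 25 members by edgeR, against 0.961% of 12694 genes. At an unadjusted p under 0.05 there were 2 members, Vha14-2 and Vha16-5, against 16.5% of genes, and DESeq2 called 1 (Vha14-2), against 16.5% of genes called as higher. Both had 0 counts in every neuroblast library, so that their fitted differences of 8.50 ± 3.42 and 6.88 ± 2.93 in log2 (standard error, edgeR adjusted p = 0.190 and 0.213) depend on the prior count and are no measure of fold. Vha14-2 had 1186 counts in the 3 h library of neuron replicate 1, 2163 in the 12 h library of replicate 2 and at most 7 in the others. The lowest p among members lower in neurons went to Vha36-3 at -3.02 ± 2.34 (edgeR adjusted p = 0.566) and VhaSFD at -2.40 ± 1.93 (edgeR adjusted p = 0.586). The difference for Vha16-1, at 1.53 ± 1.80 (edgeR adjusted p = 0.753), was not called, with replicate 2 of neurons above all neuroblast libraries and replicate 1 below them. The median difference over the 25 members was 0.30 and over all genes -0.01. The members' median was 1.43 with DESeq2 size factors and -0.58 with total counts, where 16 of the 25 were negative in place of 9. With the replicate number added as a block within each cell type, the direction turned. The median was then -2.60, beside -0.52 over all genes, and 20 of the 25 were negative. VhaPPA1-1 was called as lower in neurons (edgeR adjusted p = 0.0297), as were 193 of 12694 genes. Without replicate 1 of neurons 33 members were tested, the 8 genes counted mainly in 1 library among them. Their median was 2.30, beside 1.43 over all genes. In the pulse libraries alone 18 members were tested. Of these edgeR called 3 as lower in neurons, Vha100-5, VhaAC45RP and VhaM9.7-b, against 58.7% of 6784 genes. The difference was positive for 13 of the 18 and negative for 5, with a median of 2.77, beside -5.23 over all genes. The 33 genes summed to 8.37 CPM in the neuron pulse library of replicate 1 and to 6538 CPM in that of replicate 2. Only Vha16-1, Vha13 and Vha68-1 had any counts in the former. For all other members the neuron level at the pulse rested on replicate 2 alone.

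The median difference between the replicates of a group was larger in neurons than in neuroblasts at 3, 6 and 12 h. At the pulse it was smaller, with many members near 0 in both neuron libraries. In neuroblasts the median absolute difference in log2(CPM + 1) between replicates over the 21 members was 1.37 at the pulse, 0.72 at 3 h, 0.71 at 6 h and 2.60 at 12 h, beside 1.20, 1.42, 1.21 and 2.33 over all genes tested. In neurons it was 0.23, 3.70, 5.75 and 5.84 over the 25 members, beside 0.0068, 1.79, 2.49 and 3.76. At the neuron pulse 18 of the 25 were higher in replicate 2 and 2 were higher in replicate 1. Vha16-1 stood there at 6.72 CPM in replicate 1 and 5120 CPM in replicate 2. Vha55 stood at 0 and 617 CPM, and Vha13 at 1.49 and 1.12 CPM. The members were closer than other genes at 3 and 6 h in neuroblasts and further apart at all 4 times in neurons, where many genes were at 0 in both pulse libraries. The biological coefficient of variation in the fits was 1.78 in neuroblasts and 2.98 in neurons.

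Which transcript of a gene held the counts also varied. Of the 19 members with more than 1 transcript row, 15 had different leading transcripts in different libraries with at least 100 counts. In 71 comparisons of the replicates of a group, both above that count, the leading transcript was the same in 49 and different in 22. For Vha16-1 the transcript FBtr0086151 held at least 58.6% of the gene's counts in neuroblasts and 99.2% in the pulse library of neuron replicate 2. It held 0.761% in that replicate at 3 h and 15.5% at 12 h, where FBtr0086150 led with 77.7% and 73.4%. Counts and CPM summed over a gene's transcripts do not depend on this division. Levels per kilobase do, since each transcript's counts were divided by its own length before they were summed.

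Genes that work with the pump were read from the same edgeR tests. Of 7 genes for assembly and regulation (among them Rbcn-3A and Rbcn-3B, which assemble the pump), 6 were tested and 0 were called in each of the 4 tests, with median slopes of -0.04 in neuroblasts and -0.23 in neurons. Of 5 vesicular transporters, which use the pump's gradient to load vesicles, 5 were tested and 0 called, with median slopes of 0.16 and 0.01. Of 15 lysosomal genes, 15 were tested in neuroblasts and 14 in neurons, and 0 were called, with median slopes of -0.04 and 0.16. The mitochondrial F-type ATP synthase, a related rotary enzyme that makes ATP, was also tested in neuroblasts, where of 13 genes 2 rose (ATPsynB and ATPsynC), 12 had an unadjusted p under 0.05 with a positive slope, and the median slope was 0.24, beside 0.602% of all genes called and 8.06% at the unadjusted threshold. In neurons 14 of its genes were tested and 0 called, with a median slope of 0.05. Whether this differed from the Vha genes, with 0 called and a median of 0.04, was not tested. Markers of other tissues moved as well in neuroblasts, since 4 of 6 muscle markers (Act57B, Mhc, Mlc1 and Mlc2) and 2 of 5 fat body markers tested (Lsp1beta and Lsp1gamma) rose, as did 1 of 7 midgut markers (Jon25Bi, with 4 of 7 at an unadjusted p under 0.05), against the same 0.602% of all genes. In neurons 0 markers of these 3 tissues were called. Their part in the Vha values was not tested. Malpighian tubule, whose cells are rich in the pump, was at most 155 CPM in neuroblasts and 149 CPM in neurons over its 5 markers summed.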

How the data were processed

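Tagged RNA of 16 libraries (2 drivers, 4 times, 2 replicates) was analysed. The authors trimmed reads with Trimmomatic, mapped them with kallisto to BDGP6 and deposited estimated counts per transcript, not normalized; kallisto divides reads between similar transcripts, so counts of close copies of a gene are uncertain, and strand use is not given in the sources used here. The tables hold 31049 and 30944 transcripts, of which 30819 matched Ensembl release 115. Counts were summed per gene and rounded to whole numbers, filtered by filterByExpr and scaled by TMM in edgeR (version 4.0.16). DESeq2 (version 1.42.0) was an alternative, as were the scaling, filter, block, single transcripts, time contrast and each library left out. Two-sided quasi-likelihood tests used Benjamini-Hochberg adjustment over all genes, threshold 0.05, and standard errors follow from the F statistic. Levels between genes are per kilobase. Methods give 3 feedings and duplicate RNA samples, so replicates may be technical and p-values measure only the spread between these samples. Fits were run on simulated data, where recovery of the changed genes was required only at a smaller spread than that of these libraries. Named were the 10 members highest per kilobase and, per test, called members and the 2 with the smallest p per direction; others were chosen after their values were seen. Members and lists were chosen with earlier results of these data known. Fits without neuron replicate 1, or without the 12 h libraries of neuroblast replicate 1 and neuron replicate 2, were added after seeing the data.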

Additional observations from a re-analysis of the deposited data

How the results depend on the processing

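The count of 0 members called by edgeR held in 17 of 19 alternatives in neuroblasts, 16 of 19 in neurons, 28 of 29 for the difference of slopes and 27 of 30 for the cell types. In neuroblasts, DESeq2 size factors gave 3 and the DESeq2 test 7. In neurons the DESeq2 test gave 4, and leaving out libraries 0 to 7. The DESeq2 test gave 6 for the difference of slopes and 1 for the cell types. For the cell types the pulse libraries alone gave 3. The causes were not tested. Deviations of libraries with the same replicate number were positively correlated within neurons (0.05 to 0.30) and within neuroblasts (0.10 to 0.20), with 4 of 6 and 5 of 6 over 0.1, but ran from -0.09 to 0.15 between the cell types, 1 of 16 over 0.1. As the labels do not say what a number shares and not every correlation passed 0.1, the main fits did not take the numbers as pairs. In neurons the number still separated the libraries. Mitochondrial genes took 86.3 to 92.1% of counts in the 4 libraries of replicate 1 and 2.76 to 11.9% in the 4 of replicate 2. The main fits left the difference between neuron replicates in the spread between libraries. The ratios to the pulse and the joined lines in the plot of summed Vha CPM do follow the number. The replicate block changed the comparison of the cell types in call and direction: VhaPPA1-1 was called as lower in neurons (edgeR adjusted p = 0.0297), as were 1.52% of genes, 20 of 25 members were negative and the median became -2.60. It gave 0 calls in the other 3 tests. Scaling moved the median over all genes. With TMM, DESeq2 size factors and total counts it was -0.10, -0.07 and -0.22 in neuroblasts, 0.21, 0.02 and 0.39 in neurons, 0.47, 0.16 and 0.74 for the difference, and -0.01, 0.41 and -0.88 for the cell types. The members' median followed: 0.07 and -0.08 in neuroblasts with DESeq2 size factors and total counts, -0.43 and 0.15 in neurons, -0.53 and 0.24 for the difference, and 1.43 and -0.58 for the cell types. Signs also turned. With total counts Vha16-1 went to -0.0195 in neuroblasts, 0.0079 in neurons and 0.0258 for the difference. Leaving out libraries gave -1.55 to 0.33 for Vha14-1 and -0.57 to 0.97 for Vha16-5 in neurons, and -1.44 to 0.29 for the difference in Vha14-1. With 1 transcript per gene VhaSFD was at 1.25 between the cell types. The median over members in neuroblasts fell to -0.31 without replicate 2, beside -0.51 over all genes. For the cell types the members' median ran from -7.01 to 2.35 over libraries left out. The lowest was without replicate 2 of both cell types and the highest without replicate 1 of both, beside -1.69 and 0.40 over all genes. By counting error alone, a count of 0 allows up to 0.271 CPM, and the spread between libraries is not covered.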
